A study of Mus musculus with 8 samples.

Results

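Ccl5-positive CD8 T cells were described in the brains of WT and AppNL-G-F mice with and without intestinal inflammation. The cells were chosen in all 8 single-cell RNA-seq libraries of the study. A barcode was kept as a cell with at least 500 UMIs (unique molecular identifiers, 1 per captured RNA molecule), at least 200 genes and at most 5% of UMIs from mitochondrial genes. Its top hashtag, an antibody-bound DNA tag that marks the sample a cell came from, had at least 50 counts and at least 3 times the count of the next hashtag. Such a cell was a Ccl5-positive CD8 T cell if at least 2 of Cd3e, Cd3d and Cd3g were detected, Cd8b1 and Ccl5 had at least 1 UMI each, and Cd4 and Cd79a had none. The rule selected 3657 of 46314 cells (7.90%, exact binomial 95% interval 7.65 to 8.14%, which covers counting error only). They made up 34.4% of the 10634 cells with at least 2 Cd3 genes (T cells) and 95.1% of the 3845 CD8-gated cells, which met the rule with Ccl5 left aside. The other 188 CD8-gated cells had no Ccl5 UMI and are called Ccl5-negative. The Ccl5-positive cells numbered 577 in WT control, 180 to 186 in each of the other WT libraries, 740 in AppNL-G-F control, 760 in AppNL-G-F food allergy, 654 in AppNL-G-F chronic colitis and 376 in AppNL-G-F acute colitis.

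The study asked how intestinal inflammation changes immune cells in the brain of a mouse model of Alzheimer's disease. CD45.2+ cells were sorted from the brains of perfused mice that had received a CD45 antibody intravenously, so that cells left in blood vessels would carry it. Each condition was 1 library of samples marked by hashtags 4 to 7, and 30 hashtag groups of 31 to 3340 cells were found, for which the labels give no animal. The mouse numbers in the study's figure legends are lower than the number of hashtag groups for AppNL-G-F chronic colitis and higher for AppNL-G-F acute colitis, so that a hashtag group cannot be taken to be 1 mouse. The libraries held 26988646 to 56307389 gene UMIs over all barcodes. The groups were WT (C57BL/6J) and AppNL-G-F mice, each with a control, a food allergy, an acute colitis and a chronic colitis condition, and all mice are labelled as 16 weeks old. AppNL-G-F is a knock-in of the App gene, so that the mutated gene is under its own promoter in every cell that uses it, and all AppNL-G-F groups have this allele, the controls included: a human version of the amyloid-β part, with familial Alzheimer's mutations named Swedish, Arctic and Iberian. Control mice drank water, acute colitis was caused by 2% dextran sulfate sodium in the water for 1 week, and chronic colitis by 3 cycles of 5 days of 2% dextran sulfate sodium alternating with water. Food allergy was caused by injection of ovalbumin with alum and then oral ovalbumin. The p-values below measure the spread between hashtag groups, and a library and its condition cannot be told apart. Because a cell was counted by its gate genes, fewer cells of a type and less RNA of those genes cannot be fully told apart.

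CD8 T cells recognize peptides on MHC class I through a T cell receptor of an α and a β chain, with the CD8α and CD8β chains (Cd8a, Cd8b1) as co-receptor. After activation they make the chemokine CCL5, granzymes (proteases stored in granules) and the granule membrane protein NKG7, and many carry granzyme K (Gzmk) in inflamed or ageing tissue. Some stay in tissue as resident memory cells, which use the integrin αE (Itgae, CD103), the chemokine receptor CXCR6 and few of the receptors needed for return to blood (Ccr7, S1pr1). The variable (V) segment of each chain is chosen once in a developing T cell and is inherited by its progeny.

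The V segments were read first because they link cells across libraries. A leading β-chain V gene (Trbv) was found in 3207 of the 3657 cells (87.7%), a leading α-chain V gene (Trav) in 57.8%, and both in 1858 cells, with 599 different V pairs. A V pair is not a clonotype, because the joined region was not read here and because near-identical Trav copies may split reads. The segments of 4 pairs that were common in 2 hashtag groups each are shown because the comparison of libraries below rests on them. The last 60 bases of each GENCODE transcript (build GRCm38) are printed, and capitals mark the codon of the conserved cysteine at which the joined region starts, found as the last tyrosine-any-cysteine pattern.
Trbv13-2: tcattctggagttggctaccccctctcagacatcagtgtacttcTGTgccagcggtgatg
Trav5-4: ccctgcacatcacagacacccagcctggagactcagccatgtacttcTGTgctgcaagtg
Trbv3: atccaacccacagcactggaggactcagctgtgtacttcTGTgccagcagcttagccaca
Trav8d-2: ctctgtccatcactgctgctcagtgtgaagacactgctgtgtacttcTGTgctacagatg
Trbv15: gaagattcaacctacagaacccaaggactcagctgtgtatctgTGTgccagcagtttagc
Trav16: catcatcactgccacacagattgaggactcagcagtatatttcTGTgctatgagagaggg
Trbv31: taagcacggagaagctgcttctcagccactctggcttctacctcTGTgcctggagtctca
Trav8n-2: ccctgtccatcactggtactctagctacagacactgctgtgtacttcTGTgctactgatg

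The β segments lie on chromosome 6, at chr6:41121396-41121832 (Trbv13-2), chr6:41048290-41048828 (Trbv3) and chr6:41141188-41141658 (Trbv15) on the plus strand and at chr6:41557691-41558452 (Trbv31) on the minus strand. The α segments lie on the plus strand of chromosome 14, at chr14:53704007-53704514 (Trav5-4), chr14:53042428-53042891 (Trav8d-2), chr14:53743104-53743705 (Trav16) and chr14:53345890-53346424 (Trav8n-2).

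The 28 pairs of libraries were ranked by the mean sharing of V pairs between hashtag groups of the same number, and the highest 4 are described. In WT they were the libraries labelled control and acute colitis, and chronic colitis and food allergy. In AppNL-G-F they were likewise control and acute colitis, and chronic colitis and food allergy. In these 4, the chance that a cell of one group and a cell of the same-numbered group of the other library had the same V pair was 0.911 to 7.59%, with a median of 2.28% over 14 such pairs of groups. Over the other 379 pairs of hashtag groups in different libraries the median was 0.0913% and the highest value 2.38%. That highest value was also between same-numbered groups, of WT acute colitis and AppNL-G-F chronic colitis. Same-numbered groups of WT chronic colitis and AppNL-G-F acute colitis reached 1.72%. Because the 4 library pairs were picked by this measure, the contrast with the others is a description. With at least 20 cells on both sides, the 11 same-numbered pairs had a median of 1.88% and the other 282 pairs a median of 0.104% and a highest value of 1.49%, and 2 of the 282 were above the lowest same-numbered value. The same 4 library pairs had a median of 0.0957% and a highest value of 1.24% between groups of different numbers (42 pairs). The next library pair had a mean of 0.676% over its same-numbered groups.

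**Figure D1:**
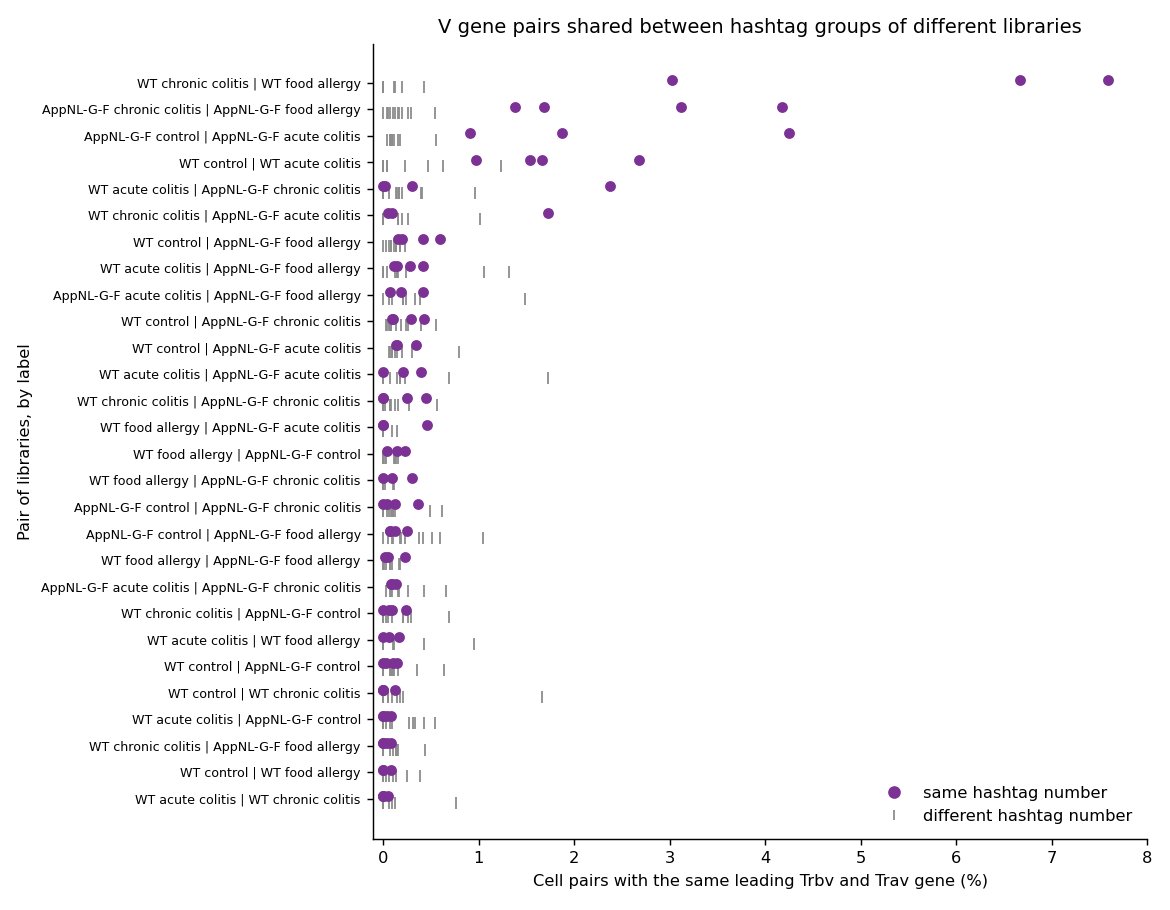
Share of cell pairs (in %) with the same leading Trbv and Trav gene, for each pair of libraries (rows, by label) and each pair of their hashtag groups. Filled circles are groups of the same hashtag number and grey ticks groups of different numbers. Rows are ordered by the mean of their circles. In the top 4 rows every circle lies at 0.911% or more, circles of lower rows reach 2.38%, and most ticks lie near 0.

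Single V pairs were shared in the same way. Trbv13-2/Trav5-4 was carried by 39 of 146 cells of hashtag 5 of the library labelled AppNL-G-F chronic colitis and by 6 of 44 cells of hashtag 5 of the library labelled AppNL-G-F food allergy, against 1 of 1668 cells elsewhere. Trbv15/Trav16 was carried by 14 of 152 and 9 of 57 cells of hashtag 4 of the same libraries and by 0 of 1649 cells elsewhere, which allows a share of up to 0.182%. Trbv3/Trav8d-2 was found in 6 of 37 cells of hashtag 7 of the library labelled AppNL-G-F control and 17 of 110 cells of hashtag 7 of the library labelled AppNL-G-F acute colitis, and in 1 of 1711 others. Trbv31/Trav8n-2 was found in 5 of 28 cells of hashtag 7 of the library labelled WT chronic colitis and 9 of 24 cells of hashtag 7 of the library labelled WT food allergy, and in 1 of 1806 others. Each of these 4 V pairs was nearly confined to 1 hashtag number of a pair of libraries that carry different treatment labels. They were chosen from the V pairs shared most in each same-numbered pair of groups, as those with at least 5 cells in both groups. Of the rest, some had 0 cells elsewhere, but others were spread more widely. Trbv3/Trav3-3 had 25 of 213 and 4 of 29 cells in hashtag 4 of AppNL-G-F control and acute colitis, and 17 of 1616 elsewhere. Trbv3/Trav7-5 had 4 of 56 and 1 of 4 in hashtag 7 of WT control and acute colitis, and 15 of 1798 elsewhere. No cell barcode was shared between the same-numbered groups (0 barcodes), and only 11 barcodes were carried by Ccl5-positive CD8 T cells of more than 1 library. The comparisons between treatments below follow the labels, and whether same-numbered hashtag groups hold cells of the same animals was not tested.

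The hashtag groups also fell into 2 sets by immediate-early genes, which are induced within minutes of stimulation or cell handling. The sets were taken from CD4-gated T cells, which are not members: 14 groups had 622.9 to 2101.5 CPM (UMIs scaled to a common total of all genes) summed over 10 immediate-early genes (low set), and 16 groups had 3396.5 to 8283.5 CPM (high set). In all 14 same-numbered pairs with shared V pairs, one group was in the low set and the other in the high set. Some low-set placements rested on few CD4-gated cells: 1 in hashtag 4 of WT chronic colitis, and 5 each in hashtags 6 and 7 of WT acute colitis. In the Ccl5-positive CD8 T cells themselves the sums overlapped between sets. Low-set hashtag 7 of WT food allergy had 2495.4 CPM, and high-set hashtags 6 and 7 of AppNL-G-F chronic colitis had 2474.1 and 1706.2 CPM. Every gene fit below has a term for the set.

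Some libraries also stood apart in other ways. In Ccl5-positive CD8 T cells, the ribosomal protein gene Rpl38, which has a transcript of 457 nucleotides, had 714.8 CPM in the library labelled WT control, 1655.6 in WT food allergy and 2747.1 to 4050.7 in the other 6 libraries. NK-gated cells had 608.8 CPM in WT control and 1468.2 to 3333.1 in the others, and the order of the lowest pair of libraries was the same in CD4-gated and B cells. Genes of neutrophils (S100a8, S100a9, Retnlg, Ly6g, none at 0) summed to 7.14 to 23303.3 CPM in the Ccl5-positive CD8 T cells of the 27 groups used for gene tests, highest in hashtag 7 of WT chronic colitis. Monocyte and macrophage genes summed to 26.4 to 5485.7 CPM, and 980 of the 3657 cells had a UMI of Lyz2, Csf1r, S100a8, Cd79b or Ms4a1. Genes of erythroid cells reached 3267.9 CPM in hashtag 7 of AppNL-G-F acute colitis, where the median group had 2.38 CPM. The highest sums of the other lists were 2507.3 CPM for NK cells, 442.5 for γδ T cells, 400.4 for microglia, 289.3 for ILC2, 128.7 for dendritic cells, 126.7 for regulatory T cells, 111.7 for invariant T cells, 103.3 for fibroblasts and 16.0 for B cells. The part of these transcripts in the results was not tested.

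**Figure D2:**
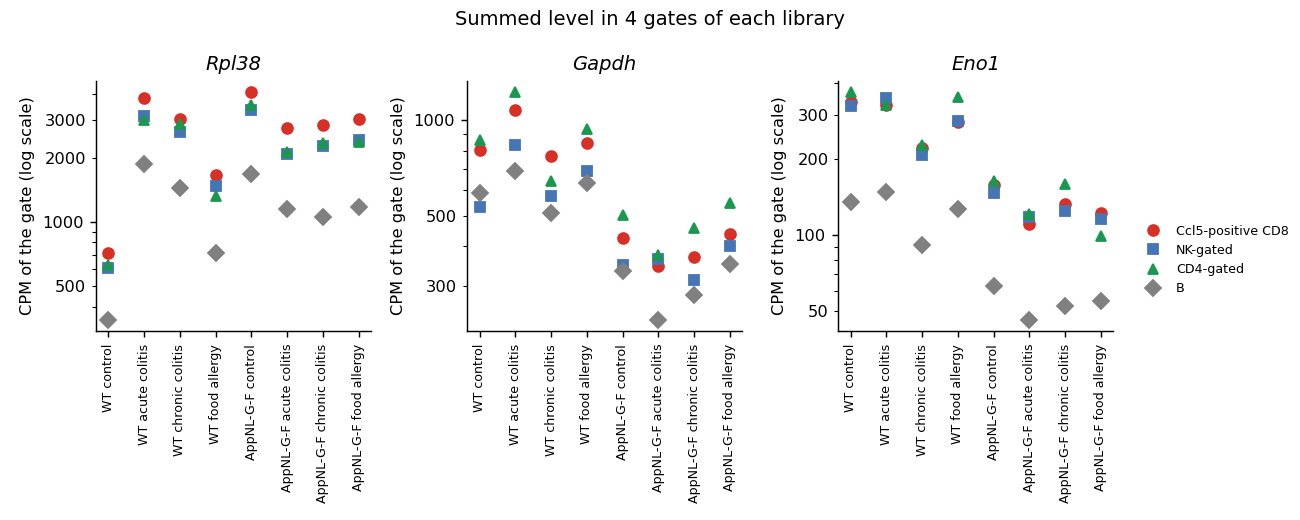
Summed level (CPM, log scale) of Rpl38, Gapdh and Eno1 in Ccl5-positive CD8 T cells, NK-gated cells, CD4-gated cells and B cells of each library, by its label. Rpl38 was lowest in WT control in all 4 kinds of cell, and Gapdh and Eno1 were lower in the 4 AppNL-G-F libraries than in the 4 WT libraries in each kind.

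The label held against the markers. The 3657 cells had a median of 3051 UMIs and 1365 genes, and a median of 31 Ccl5 UMIs (interquartile range 18 to 50), so that few sat at the edge of the gate. The cells were chosen by the UMIs of Cd8b1, Ccl5, the Cd3 genes, Cd4 and Cd79a, and Nkg7 and Gzmk moved with Ccl5, so the following shares are a description. Nkg7 was detected in 98.0% of the cells, Cd8a in 90.9% and Gzmk in 60.9%. In Ccl5-negative CD8-gated cells (median 3332.5 UMIs) the shares were 63.3, 64.4 and 10.1%. Genes that define other cells were near 0: the NK cell receptor gene Ncr1 was found in 1.04%, the regulatory T cell factor Foxp3 in 0.438%, the innate-like T cell factor Zbtb16 in 0.410% and the γδ chain gene Trdc in 0.602% of the cells, and no cell had a UMI of Trav11 (0 of 3657, which allows a share of cells with such a UMI of up to 0.082% but does not limit the cells that use it, since a leading Trav gene was read in only 57.8%). Tcrg-C2 and Trgv2, γ-chain genes that αβ T cells may also transcribe, were found in 9.11 and 21.1%. As a background for 1 Ccl5 UMI, 2.83% of 11677 B cells had Ccl5 (1.14 to 4.57% by library, median 2534 UMIs), as did 90.1% of NK-gated and 42.2% of CD4-gated cells.

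Close to the threshold, the 43 cells with 1 Ccl5 UMI had Nkg7 in 83.7% and Gzmk in 27.9%, and the 319 cells with 2 to 9 UMIs had them in 93.7 and 40.1%. The 3295 cells with 10 or more Ccl5 UMIs had them in 98.5 and 63.3%. By hashtag, 66 members had a top count 3 to 4 times the next, and 84 cells that met the gene gate had one 2 to 3 times the next and were left out.

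The cells were rich in granule and cytotoxic transcripts, but granzyme K was far more common than the other granzymes. Gzmk was found in 60.9% of them, Gzmb in 18.5% and Gzma in 5.96%, whereas NK-gated cells had Gzmk in 2.43%, Gzmb in 40.9% and Gzma in 39.8%. Perforin (Prf1), which forms pores in target cells, was found in 21.4% of the cells and 41.2% of NK-gated cells. The death ligand gene Fasl was found in 53.6% and 54.5%, and the granule protease genes Ctsw in 87.1% and 95.6%. The hashtag groups ranged from 203.6 to 815.9 CPM for Gzmk, with a median of 424.9, and from 1041.0 to 3156.6 CPM for Nkg7, with a median of 2015.0. Groups of 1 condition also spread widely for Gzmk: WT control groups had 408.2, 418.9, 427.7 and 552.5 CPM, and AppNL-G-F chronic colitis groups spanned 271.2 to 815.9 CPM. Among chemokines, Xcl1 was found in 43.0% of the cells and Ccl4 in 25.5%, and the effector cytokine genes Ifng and Tnf in 12.2 and 6.65%.

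Receptors of tissue entry were common, whereas the genes of tissue residency were mixed. Cxcr6 was found in 77.4% of the cells, Cxcr3 in 62.3% and Itga4, the α4 integrin chain needed to enter the inflamed brain, in 64.0%, against 36.2, 29.8 and 52.1% of Ccl5-negative cells. Itgae was found in 11.2% of the cells and 9.04% of Ccl5-negative cells, and the collagen-binding integrin chain Itga1 in 20.4 and 6.38%. Cd69, which holds T cells in tissue and also marks recent activation, was found in 20.1 and 20.2%, Rgs2 in 8.48 and 12.2%, and Zfp683, the gene of the residency factor Hobit, in 7.93 and 2.66%. The receptors of circulating cells Ccr7 and S1pr1 were found in 5.72 and 10.5% of the cells and in 40.96 and 31.9% of Ccl5-negative cells. The naive and memory transcription factor genes Lef1 and Tcf7 were found in 16.4 and 37.5% and in 47.3 and 62.2% of Ccl5-negative cells, and Id2, which promotes effector cells, in 61.6 and 25%.

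Of the inhibitory receptors, Tigit was found in 37.0%, Pdcd1 (PD-1) in 34.0%, Lag3 in 12.3% and Havcr2 (TIM-3) in 3.83% of the cells, and the factor Tox in 23.8%. The cytokine receptor chains Il2rb and Il7r were found in 72.5 and 47.1%. Of the NK receptors, Klrd1 and Klrc1, which form the inhibitory receptor CD94/NKG2A, were found in 38.4 and 26.0%, whereas Klrb1c, which most NK-gated cells had (87.7%), was found in 2.73%. Cycling cells were few, with Mki67 in 5.39% and Top2a in 4.87%. The interferon-stimulated genes Ifi27l2a and Isg15 were found in 52.0 and 15.5%.

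The β-chain V genes were used unevenly. Trbv3 was the leading gene in 12.9% of the 3207 cells with one, with 2.78 to 23.2% over hashtag groups, and Trbv29, Trbv19 and Trbv13-2 followed with 8.26, 8.20 and 8.05%. Trbv13-2 led in CD4-gated cells (16.3%). Single groups stood far above these means: Trbv31 made up 42.4% in hashtag 7 of WT food allergy, Trbv19 37.7% in hashtag 5 of WT food allergy, Trbv13-2 29.5% in hashtag 5 of AppNL-G-F chronic colitis and Trbv15 29.1% in hashtag 4 of AppNL-G-F chronic colitis. The chance that 2 cells of a group had the same leading Trbv gene was 9.48% ± 1.70 (SD, n = 5 groups) in Ccl5-positive and 7.29% ± 1.68 (SD, n = 5) in Ccl5-negative cells of the same groups. It was higher in the Ccl5-positive cells of 4 of 5 groups, by 2.19 percentage points on average (two-sided exact sign-flip permutation test, p = 0.125, where 0.0625 is the smallest value that 5 groups allow). Against CD4-gated cells, a comparison chosen after the data were seen, it was 9.88% ± 3.18 (SD) and 8.62% ± 3.39 (SD) over 27 groups, higher in 17 of 27 (two-sided permutation test, p = 0.107).

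The share of Ccl5-positive CD8 T cells among T cells differed between the immediate-early sets. It was 23.5 to 53.6% (median 45.1%) in the 14 low-set groups and 11.5 to 28.7% (median 22.2%) in the 16 high-set groups. Among all cells it was 6.07 to 29.2% (median 16.4%) and 0.868 to 7.95% (median 3.69%). The ranges of the sets overlapped in both measures. In the following values n counts hashtag groups, which cannot be taken to be mice. By label, the share of T cells was 33.2% ± 16.4 (SD, n = 4) in WT control, 24.7% ± 5.00 (SD, n = 3) in WT food allergy, 23.7% ± 4.58 (SD, n = 4) in WT acute colitis and 30.2% ± 16.7 (SD, n = 4) in WT chronic colitis. It was 37.8% ± 14.4 (SD, n = 4) in AppNL-G-F control, 31.1% ± 10.98 (SD, n = 3) in AppNL-G-F acute colitis, 36.0% ± 13.3 (SD, n = 4) in AppNL-G-F chronic colitis and 35.7% ± 17.8 (SD, n = 4) in AppNL-G-F food allergy. No comparison passed the test (two-sided exact or 100000-resample permutation tests over groups of both sets, adjusted p = 0.771 in all 8 comparisons). Within the low set, AppNL-G-F minus WT was 10.98 points, WT acute colitis minus control -18.4 points and WT food allergy minus control -14.7 points, and within the high set they were 3.95, -0.56 and 0.49 points. The low-set groups of WT acute colitis, hashtags 6 and 7, had only 34 and 30 T cells, 8 and 9 of them Ccl5-positive CD8 T cells. The low set of WT food allergy was 1 group, hashtag 7, with 42 such cells among 138 T cells. These groups and hashtag 4 of WT chronic colitis, with 11 T cells, also enter the low-set genotype value. The other treatments minus control lay between -6.36 and 0.68 points within the low set and between -5.08 and -0.60 points within the high set, with 1 or 2 groups on each side, and no test was made within a set.

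**Figure D3:**
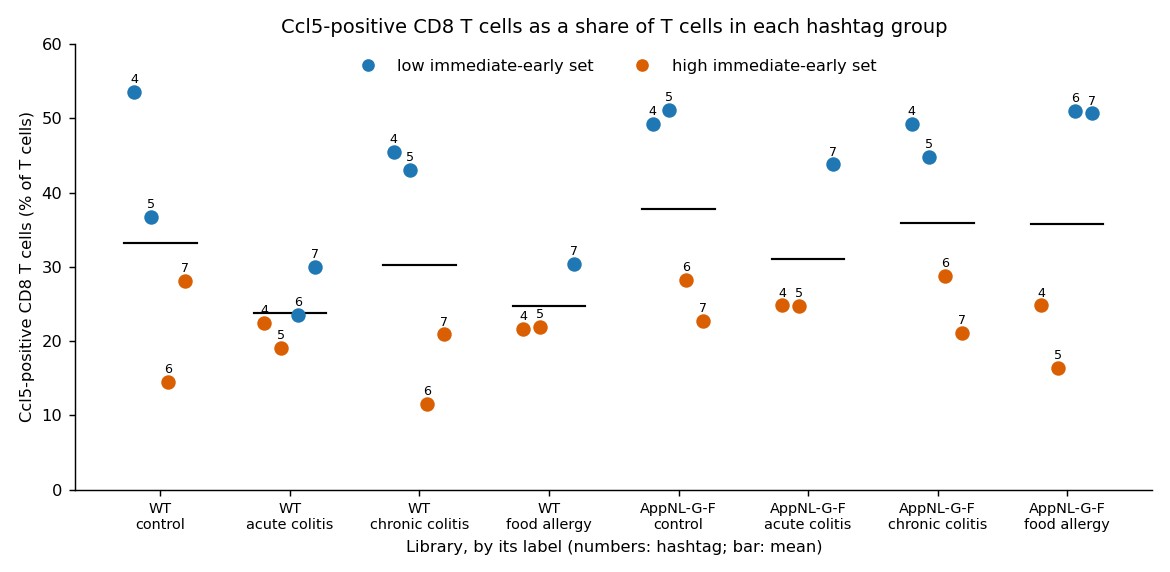
Ccl5-positive CD8 T cells as a percentage of T cells (cells with at least 2 Cd3 genes) in each hashtag group, by the library's label. Numbers are hashtags, bars are means, and colours mark the immediate-early sets, with low-set groups at 23.5 to 53.6% and high-set groups at 11.5 to 28.7%.

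The share with Ccl5 among CD8-gated cells, which does not depend on how many T cells were sorted, was high in every condition. Here too n counts hashtag groups and not mice. It was 93.0% ± 4.84 (SD, n = 4) in WT control, 96.8% ± 4.18 (SD, n = 3) in WT food allergy, 86.0% ± 8.90 (SD, n = 4) in WT acute colitis and 90.6% ± 9.34 (SD, n = 3) in WT chronic colitis. The AppNL-G-F groups had 93.8% ± 4.77 (SD, n = 4) in control mice, whereas food allergy had 97.1% ± 0.408 (SD, n = 4). They had 92.8% ± 2.86 (SD, n = 3) in acute and 97.2% ± 2.21 (SD, n = 4) in chronic colitis. All groups overlapped with their control. The lowest p-value was that of AppNL-G-F against WT over the 4 treatments, where the mean of the 4 differences within a treatment was 3.61 percentage points (95.4% ± 3.35 over 15 groups and 91.3% ± 7.50 over 14, permutation within treatment, p = 0.0873, adjusted p = 0.40). The treatment comparisons gave exact permutation p-values of 0.143 to 0.80 (adjusted p = 0.40 to 0.80), where 4 against 4 groups allow no p under 0.0286. Within the low set the AppNL-G-F share was higher by 3.57 points and within the high set by 4.45 points. WT acute colitis minus control was -12.8 points within the low set, where its groups had 10 and 11 CD8-gated cells, and -1.19 points within the high set. AppNL-G-F acute colitis minus control was 4.72 points within the low set and -5.09 points within the high set.

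Same-numbered groups that shared V pairs were then set side by side, with no test, since the sets were found on these libraries. For 11 of the 14 pairs both groups had at least 10 cells. Itgae was higher in the low-set group of all 11 pairs, with medians of 77.7 CPM in the low-set and 15.1 CPM in the high-set groups. Cxcr6 (782.5 and 451.4 CPM), Cdh1, the E-cadherin gene (26.6 and 8.24 CPM), and Cd8a (1311.0 and 795.5 CPM) did the same. Of the 145 genes of the lists, 5 were used by the gate (Ccl5, Cd8b1, Cd3d, Cd3e and Cd3g). Of the other 140, 8 were higher in the low-set group of all 11 pairs (5.71%, against 1.09% of all 9928 genes): Cd8a, Cdh1, Ctsw, Cxcr6, Isg20, Itgae, Lat and Ltb. The opposite held for 10 of them (7.14%, against 0.604% of all genes): Btg2, Dusp1, Ier2, Il10ra, Junb, Klf2, Nr4a1, Rgs1, Rgs2 and Zeb2. Of these, Btg2, Dusp1, Ier2, Junb and Nr4a1 are among the 10 immediate-early genes by which the sets had been found in CD4-gated cells. Their direction followed in part from that choice, so the 7.14% overstates the share among the remaining list genes. Junb had medians of 206.0 CPM in the low-set and 902.9 CPM in the high-set groups, Rgs1, a brake on chemokine receptors, 182.8 and 508.4 CPM, and Klf2, a factor of circulating T cells, 154.5 and 308.7 CPM. The residency list was split: of its 12 genes, Itgae, Cxcr6 and Cdh1 were higher on the low-set side of every pair, Rgs1 and Rgs2 on the high-set side of every pair, and Cd69 on the high-set side of 10 (51.0 and 78.2 CPM). Gzmk was higher in the low-set group of 6 pairs and in the high-set group of 5. Among the gate genes, Cd3e was higher on the low-set side of all 11 pairs. Cd3d and Cd8b1 were so in 10, Cd3g in 9 and Ccl5 in 3. Of the receptor complex genes, Lck was so in 9, Zap70 in 8, Trbc2 in 7, Trac and Cd247 in 5 and Trbc1 in 4. The 9 tested killer-cell lectin-like receptor genes were higher on the high-set side of 6 (Klrd1) to 10 pairs. What lay behind these shifts was not tested.

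**Figure D4:**
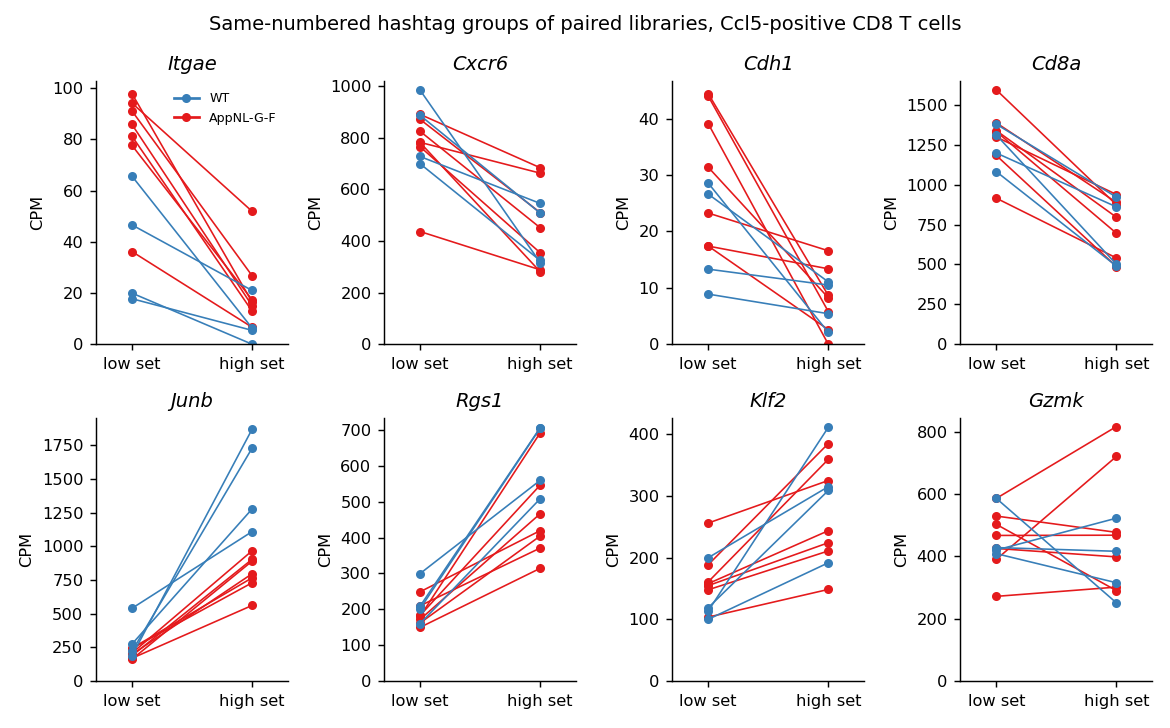
Level (CPM) of 8 genes in the Ccl5-positive CD8 T cells of 11 pairs of same-numbered hashtag groups from libraries that shared V pairs, joined by lines. Itgae, Cxcr6, Cdh1 and Cd8a fell from the low-set to the high-set group in all 11 pairs, Junb, Rgs1 and Klf2 rose in all 11, and Gzmk was higher on the low-set side of 6 pairs.

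Cells that carried the same V pair on both sides were then pooled. No weighting was used, so V pairs and groups entered the sides in unequal numbers. Trbv13-2/Trav5-4, for example, gave 39 low-set cells of hashtag 5 of AppNL-G-F chronic colitis, 22 of them with Itgae, and 6 high-set cells. Among 412 low-set and 207 high-set cells with a shared V pair, Itgae was found in 15.3 and 3.38%, Cxcr6 in 85.0 and 71.5%, Rgs1 in 41.5 and 66.7%, Dusp1 in 7.77 and 61.4% and Ccl4 in 25.5 and 50.7%. The median depth was 2749.5 and 2822.0 UMIs. Nkg7 (99.8 and 97.6%) and Gzmk (68.2 and 76.3%) were closer. Within single V pairs, with 5 to 39 cells on a side, Rgs1 and Junb had a higher CPM in the high-set cells of all 4 pairs shown above. For Rgs1 in Trbv13-2/Trav5-4 cells this rested on 3 UMIs in 2 of 6 high-set cells (271.2 CPM). The low-set side had it in 15 of 39 cells (216.2 CPM), a larger share of cells. Cxcr6 did not go 1 way. It had 258.6 CPM in the low-set and 616.9 CPM in the high-set cells of Trbv3/Trav8d-2, 1035.8 and 2153.9 CPM in those of Trbv15/Trav16 and 1228.2 and 1536.9 CPM in those of Trbv13-2/Trav5-4. In Trbv31/Trav8n-2 cells it was the other way, with 1955.8 and 400.6 CPM. Itgae was found in 22 of 39 low-set and 2 of 6 high-set Trbv13-2/Trav5-4 cells, and in at most 1 cell on either side of the other 3 pairs. Over all 27 groups, low and high set did not overlap for 11 of 9928 genes (0.111%), 2 higher in the low set (0.0201%) and 9 higher in the high set (0.0907%), of which Rgs1 had 149.4 to 299.5 CPM in the low and 314.0 to 706.6 CPM in the high set, and Junb 160.5 to 539.0 and 560.4 to 1892.9 CPM.

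Gene levels were tested by edgeR's quasi-likelihood test with Benjamini-Hochberg adjustment on UMIs summed over the Ccl5-positive CD8 T cells of each of 27 hashtag groups with at least 10 of them. Log2 fold changes are given ± SE from that fit, levels of single groups are CPM after TMM scaling, and a gene was called at an adjusted p under 0.05. Gzmk and Nkg7 were called in none of the 8 comparisons, with log2 fold changes between -0.59 and 0.23 for Gzmk and -0.24 and 0.26 for Nkg7. Ccl5 and Cd8b1 were used by the gate, so their log2 fold changes, between -0.46 and 0.37 for Ccl5 and -0.35 and 0.297 for Cd8b1, are a description. Of the 145 genes of the lists, 136 were called in no comparison, the 5 gate genes among them.

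In WT acute colitis, 118 genes (1.19%) were called against WT control, 110 higher (1.11%) and 8 lower (0.0806%). None of the 145 list genes was among them (0 of 145). Only the high-set hashtags 4 and 5 of WT acute colitis entered the fit. The higher genes were short: the median transcript length, 1 value per gene from its longest GENCODE transcript, was 737.0 nucleotides, against 2961.5 for all genes, and 63.6% were under 1000 nucleotides, against 7.53% of all genes. Rpl38 had 3752.5 and 3974.1 CPM in the acute colitis groups and 618.6 to 689.9 CPM in the 4 WT control groups (log2 fold change 2.65 ± 0.09, adjusted p = 1.78e-29). Rps28 of the small ribosomal subunit (2.48 ± 0.10, adjusted p = 1.65e-26), the RNA polymerase subunit gene Polr2l (3.55 ± 0.46, adjusted p = 8.50e-08), the ATP synthase subunit gene Atp5k (2.44 ± 0.23, adjusted p = 6.16e-12) and Ccnb1ip1 (2.45 ± 0.47, adjusted p = 4.77e-04) were the other largest rises. Rpl38 was lowest in WT control in NK-gated, CD4-gated and B cells too, as given above. When only genes with transcripts of 1000 nucleotides or more were tested, a setting chosen after the data were seen, 41 genes were called here, 39 in WT food allergy and 116 in WT chronic colitis. The largest falls reported here were Acer3 (-2.65 ± 0.72, adjusted p = 0.0460), H1f0 (-2.08 ± 0.56, adjusted p = 0.0460) and Tcp11l2 (-1.49 ± 0.37, adjusted p = 0.0181). Each of these 3 calls was lost without some groups. Acer3 was not called without hashtag 5 or 7 of WT control (adjusted p = 0.0875 and 0.217) or hashtag 4 or 5 of WT acute colitis (0.0754 and 0.585). H1f0 was not called without hashtag 5, 6 or 7 of WT control (adjusted p = 0.0539, 0.108 and 0.136) or hashtag 4 or 5 of WT acute colitis (0.166 and 0.568). Tcp11l2 was not called without hashtag 7 of WT control (adjusted p = 0.171) or hashtag 5 of WT acute colitis (0.606).

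In WT chronic colitis, 256 genes (2.58%) were called, 207 higher (2.09%) and 49 lower (0.494%), and 5 list genes were among them. The cell cycle genes Hmgb2 and Pclaf rose. Hmgb2, a chromatin protein of dividing cells, had 686.2, 888.3 and 1200.6 CPM in the 3 chronic colitis groups and 241.8 to 378.1 CPM in the 4 controls, without overlap (1.46 ± 0.28, adjusted p = 4.34e-03). Pclaf, a partner of the replication clamp PCNA, had 133.2, 209.9 and 250.1 CPM and 15.9 to 49.8 CPM in control (2.36 ± 0.48, adjusted p = 7.15e-03). The 10 cell cycle genes had a median log2 fold change of 1.42, against -0.03 for all genes, and the other 8 were not called. Neutrophil genes summed to 15172.4 CPM in the Ccl5-positive CD8 T cells of this library and to 3980.8 CPM in WT control, and the part of other cells in these rises was not tested. Pclaf stayed called without any 1 group (highest adjusted p = 0.0323), whereas Hmgb2 had an adjusted p of 0.0629 without hashtag 5 of WT chronic colitis. Tbx21, which encodes the effector factor T-bet, fell (37.8, 52.3 and 58.9 CPM against 80.8 to 100.6 CPM in control, -0.89 ± 0.25, adjusted p = 0.0310), as did the immediate-early gene Btg2 (-0.88 ± 0.15, adjusted p = 6.31e-05) and the chaperone gene Dnajb1 (-1.62 ± 0.39, adjusted p = 0.0289). Tbx21 was not called without hashtag 4 of WT control (adjusted p = 0.110) or without hashtag 5 or 6 of WT chronic colitis (0.389 and 0.0527). Dnajb1 was not called without hashtag 4 or 7 of WT control (adjusted p = 0.0767 and 0.0838) or hashtag 5 or 6 of WT chronic colitis (0.213 and 0.108). The 6 tested heat shock genes had a median log2 fold change of -1.52. Ly6d, Tagln, Igfbp7, Lum and Serping1 were the largest rises. Ly6d, Tagln, Igfbp7 and Lum had no UMI in WT control and were at least 51.0, 44.7, 34.9 and 28.6-fold higher with a floor of 3 UMIs over the library, with 73, 64, 50 and 41 UMIs in chronic colitis (adjusted p = 0.0327, 3.79e-04, 0.0323 and 0.0165). Each of these 4 had 0 CPM in hashtag 6 of WT chronic colitis. Ly6d was not called without any 1 of the 4 WT control groups or hashtag 5 or 7 of WT chronic colitis (adjusted p = 0.0548 to 0.117), Igfbp7 without any 1 of the 4 WT control groups (0.0558 to 0.0809) and Lum without hashtag 7 of WT control (0.0551). Igfbp7 and Lum had too few UMIs to be tested without hashtag 5 or 7 of WT chronic colitis. Serping1 had 5.82, 40.5 and 59.96 CPM, and 0 to 1.06 CPM in control (adjusted p = 3.26e-05). Lum and Tagln are genes of fibroblasts and smooth muscle, and the fibroblast markers Col1a1 and Dcn summed to 57.8 CPM in the Ccl5-positive CD8 T cells of this library, against 0.290 CPM in WT control. The part of such transcripts in these calls was not tested. The largest falls beside Dnajb1 were Trat1, which stabilizes the T cell receptor complex (-2.99 ± 0.74, adjusted p = 0.0101), Msantd2, Fam8a1 and Mepce. All 4 calls were lost without some groups, those of WT chronic colitis hashtag 5 and 7 in each case. Trat1 had adjusted p = 0.148 and 0.0853 without them. Msantd2 was also lost without hashtag 7 of WT control (0.0652 to 0.150 over the 3 groups), Mepce without hashtag 4 or 7 of WT control (0.0757 to 0.300 over 4), and Fam8a1 without hashtag 4 or 6 of WT control or hashtag 6 of WT chronic colitis (0.105 to 0.154 over 5).

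In WT food allergy, 129 genes (1.3%) were called, 111 higher (1.12%) and 18 lower (0.181%), with 1 list gene. Klrk1, the gene of the activating receptor NKG2D, had 79.9, 80.0 and 92.0 CPM in food allergy and 117.5 to 220.5 CPM in control, without overlap (-1.03 ± 0.24, adjusted p = 0.0154). Irf8, a factor of myeloid cells that activated CD8 T cells also use, had 99.8, 165.0 and 235.8 CPM and 7.35 to 68.7 CPM in control (2.35 ± 0.53, adjusted p = 0.0304). Monocyte and macrophage genes summed to 2899.6 CPM in the Ccl5-positive CD8 T cells of this library and to 1327.8 CPM in WT control, and the part of these in the call was not tested. Klrk1 was not called without hashtag 6 of WT control (adjusted p = 0.0650) or hashtag 4 or 5 of WT food allergy (0.169 and 0.164). Irf8 was not called without hashtag 4 or 6 of WT control (adjusted p = 0.0893 and 0.0901) or any 1 of hashtags 4, 5 and 7 of WT food allergy (0.129, 0.0554 and 0.0685). The other largest rises were Nrn1, Lst1, Lmo1 and Ube2l6 (log2 fold changes of 3.53, 2.28, 2.11 and 2.09), and the largest falls Apaf1, Msantd2, Phf8, Fam241a and Lrrc59 (-2.29, -2.17, -1.54, -1.40 and -1.40). Each of these 9 calls was lost without hashtag 5 of WT food allergy, except Ube2l6, which was lost without hashtag 4 of WT food allergy (adjusted p = 0.286). Lmo1 was lost without that hashtag 5 alone (0.449). Nrn1 and Lst1 were also lost without hashtag 4, 5 or 6 of WT control or hashtag 4 of WT food allergy (0.0613 to 0.385 and 0.0695 to 0.454 over the 5 groups). Apaf1, Msantd2, Fam241a and Lrrc59 were also lost without hashtag 7 of WT control or hashtag 4 of WT food allergy (0.132 to 0.304, 0.0617 to 0.129, 0.0690 to 0.361 and 0.0958 to 0.254 over 3, 4, 5 and 5 groups). The latter 3 were lost without hashtag 7 of WT food allergy too, Fam241a without hashtag 6 and Lrrc59 without hashtag 4 of WT control, and Phf8 without any 1 of the 7 groups (0.0578 to 0.549). The interferon-stimulated list had a median log2 fold change of 0.93 here, against 0.71 in WT acute and 0.60 in WT chronic colitis, and none of its 11 tested genes was called. The 3 comparisons share the WT control groups.

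Few genes were called between the AppNL-G-F libraries labelled as treated and AppNL-G-F control. The WT calls above were made against the library with the lowest Rpl38, and the numbers of calls were not tested between genotypes. In acute colitis 27 genes (0.272%) were called, 17 higher (0.171%) and 10 lower (0.101%). The β-chain constant gene Trbc2, the list gene among them, had 80.1, 104.3 and 121.1 CPM in acute colitis and 171.0 to 214.8 CPM in control, without overlap (-0.98 ± 0.20, adjusted p = 0.0109), whereas Trbc1 and Trac were not called. Trbc2 was not called without hashtag 7 of AppNL-G-F control (adjusted p = 0.0530) or hashtag 5 or 7 of AppNL-G-F acute colitis (0.0612 and 0.563). Rpl38 (-0.53 ± 0.08, adjusted p = 1.13e-04), Rps28, Rps21 and the membrane protein gene Ms4a4c (-1.39 ± 0.33, adjusted p = 0.0429) also fell. The largest rises were Ttr, Kl and Clu, which are strongly used in the choroid plexus, with Asprv1 and Apol11b. Asprv1 had 0, 101.4 and 200.3 CPM in the acute colitis groups and 0 to 0.753 CPM in control. Over groups, neutrophil genes in these cells summed to a mean of 14272.3 CPM in acute colitis and 664.5 CPM in control. The part of transcripts of other cells in these rises was not tested. Ttr had 4630.6 CPM in hashtag 7 of acute colitis and 0 and 4.32 CPM in the other acute colitis groups (adjusted p = 9.64e-04), so that this call rested on 1 group, the same that held the most erythroid transcripts. Kl had no UMI in AppNL-G-F control and was at least 29.8-fold higher, with all its 50 UMIs in the same hashtag 7, and without that group neither had the 50 UMIs needed to be tested. Without hashtag 4 of AppNL-G-F control, Ttr had an adjusted p of 0.0647, Kl of 0.132, Clu of 0.267 and Apol11b of 0.335, and Clu and Apol11b could not be tested without hashtag 7 of acute colitis either. Asprv1 was lost without any 1 group but hashtag 4 of acute colitis (0.0842 to 0.635), and Ms4a4c without any 1 group but hashtag 7 of control (0.0536 to 0.677). Rps28 and Rps21 were lost without hashtag 5 of acute colitis (0.0906 and 0.0742).

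In AppNL-G-F chronic colitis 12 genes (0.121%) were called, 1 higher (0.0101%) and 11 lower (0.111%), and in food allergy 7 genes (0.0705%), 2 higher (0.0201%) and 5 lower (0.0504%). None of the 145 list genes was called in either. Rpl38 (-0.57 ± 0.07, adjusted p = 1.89e-06), Rps29, Rps28, Rps21 and the receptor gene Klrb1b fell in chronic colitis, with Klrb1b at 0 in all 4 groups and at least 6.46-fold lower (adjusted p = 0.0483). The call of Klrb1b was lost without hashtag 4 or 6 of AppNL-G-F control (adjusted p = 0.395 and 0.219) and without any 1 group of AppNL-G-F chronic colitis (0.116 to 0.438). In food allergy, Rps29 (-0.45 ± 0.08, adjusted p = 1.47e-03), Rpl38 and Rps28 fell, of which Rps28 was lost without hashtag 4, 5 or 7 of control or hashtag 5 or 7 of food allergy (adjusted p = 0.0585 to 0.136). The 1 and 2 genes called higher were T cell receptor segments. Hmgb2 and Pclaf were not called in any AppNL-G-F treatment, and whether the effect of chronic colitis differed between WT and AppNL-G-F was not tested.

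Between genotypes, AppNL-G-F control and WT control differed in 199 genes (2.0%), 180 higher (1.81%) and 19 lower (0.191%) in AppNL-G-F. The higher genes were again short, with a median length of 835.5 nucleotides, and the library with the lowest Rpl38 is the control of this comparison. Polr2l (3.17 ± 0.37, adjusted p = 4.97e-09), the histone genes Hist1h4c, Hist1h2bm and Hist1h4d, and Rpl38 rose most, and Phlda1, Ifi208, Lilr4b, Per1 and Erh fell most. Without some 1 of the 8 groups, Hist1h4c (hashtag 4 of either control, adjusted p = 0.0757 and 0.120) and Hist1h2bm (any but hashtag 6 of either control, 0.0621 to 0.323) were not called. Of the falls, Per1 was lost without any 1 group but hashtag 4 of WT control (0.0586 to 0.481), Erh without hashtag 4 or 6 of WT control or hashtag 4, 5 or 6 of AppNL-G-F control (0.0772 to 0.559), Lilr4b without hashtag 6 of WT control or hashtag 4, 5 or 7 of AppNL-G-F control (0.0592 to 0.0776) and Phlda1 without hashtag 4 or 7 of WT control or hashtag 6 of AppNL-G-F control (0.0581 to 0.0988). The list gene Btg2 fell (-0.60 ± 0.13, adjusted p = 3.63e-03), which was not called without hashtag 7 of WT control (-0.41, adjusted p = 0.148).

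Over all 4 treatments, 117 genes (1.18%) differed between AppNL-G-F and WT, 82 higher (0.826%) and 35 lower (0.353%). The higher genes were short here too, with a median length of 743.5 nucleotides, against 2961.5 for all genes. Of them, 65.85% were under 1000 nucleotides, against 7.53% of all genes. The WT side includes WT control, the library with the lowest Rpl38. The glycolytic genes Gapdh and Eno1 and the interferon-inducible gene Ifi208 were lower in every AppNL-G-F group than in any WT group, as were no other of the 9928 genes (3 genes, 0.0302%). Gapdh had 304.9 to 523.8 CPM (median 419.0) in the 15 AppNL-G-F groups and 643.3 to 1198.0 CPM (median 780.3) in the 12 WT groups (-1.05 ± 0.07, adjusted p = 1.04e-16). Eno1 had 56.2 to 177.1 CPM (median 135.7) and 213.2 to 339.3 CPM (median 297.4) (-1.13 ± 0.08, adjusted p = 2.24e-15). Ifi208 had 29.0 to 60.2 CPM (median 38.7) and 84.7 to 146.6 CPM (median 104.0) (-1.50 ± 0.12, adjusted p = 5.89e-14). Gapdh and Eno1 were chosen after their values were seen, and both have near-identical copies elsewhere in the genome that could split reads. Gapdh was lower in the AppNL-G-F libraries in NK-gated, CD4-gated and B cells as well, so that the difference was not particular to Ccl5-positive CD8 T cells. The 3 genes stayed called without any 1 of the 27 groups. Genotype and library cannot be told apart here.

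**Figure D5:**
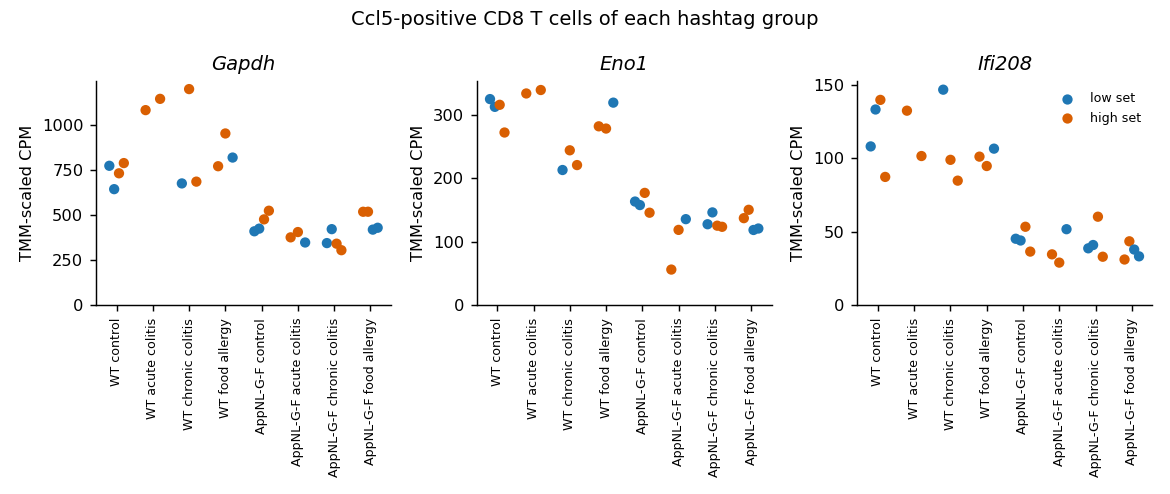
Level (TMM-scaled CPM) of Gapdh, Eno1 and Ifi208 in the Ccl5-positive CD8 T cells of each of 27 hashtag groups, by label, with colours for the immediate-early sets. All 15 AppNL-G-F groups lie below all 12 WT groups for each gene, at no more than 523.8, 177.1 and 60.2 CPM.

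Of the 145 list genes, 4 differed between genotypes, all lower in AppNL-G-F. They were the immediate-early genes Junb (160.5 to 966.1 CPM in AppNL-G-F and 186.5 to 1892.9 CPM in WT, -0.71 ± 0.12, adjusted p = 2.61e-03) and Btg2 (-0.37 ± 0.08, adjusted p = 2.92e-03), Bhlhe40, a factor of resident and activated T cells (-0.57 ± 0.11, adjusted p = 6.35e-04), and Trbc2 (-0.76 ± 0.10, adjusted p = 1.81e-06). The ranges of all 4 overlapped, and all 4 stayed called without any 1 of the 27 groups. The largest rises were Hist1h2ab (2.20 ± 0.53), Rab4a, Hist1h4d, Rps29 and Znrd2, and the largest falls Thbs1, the thrombospondin-1 gene (-3.05 ± 0.61, adjusted p = 3.78e-03), Itgb5, Slamf9, Ifi208 and Phlda1. Thbs1 was not called without hashtag 4 of WT acute colitis (-1.95, adjusted p = 1.0), nor was Itgb5 (0.487). Hist1h2ab was lost without hashtag 4 or 5 of WT acute colitis or hashtag 7 of AppNL-G-F acute colitis (0.0521 to 0.220). Znrd2 was lost without any 1 of 7 groups, of which WT chronic colitis hashtag 5 gave the highest adjusted p (0.0522 to 0.166), and Slamf9 without any 1 of 12 groups of all 8 libraries (0.0531 to 0.450). Lists of cytotoxic genes, homing receptors and checkpoint genes held no call between genotypes (0 of 10, 18 and 12 genes), with a median log2 fold change of 0.23 for the cytotoxic list, against 0.03 for all genes.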

How the data were processed

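Brain cells of 8 libraries (1 per condition) were profiled by 5′ single-cell RNA-seq with hashtag antibodies. The deposited files hold UMI counts per gene and barcode, which the authors made with Cell Ranger (6.1.2 in the submitters' processing notes, whereas the matrix headers name another version) on mm10, unfiltered and not normalized. The labels give 16 weeks of age, whereas the study's methods give a younger age. The V(D)J libraries were not analysed here.

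Cells and hashtags were filtered as given in the report. No doublet caller was run, and doublets were limited only by the hashtag ratio and the absence of Cd79a. UMIs were summed over the Ccl5-positive CD8 T cells of each hashtag group with at least 10 of them (27 of 30 groups, 22 cells left out with the other 3). Genes with at least 50 UMIs in total (9928) were fitted in R (4.3.3) by edgeR (4.0.16) with TMM scaling, robust quasi-likelihood, a term for the library and a term for the immediate-early set. The set divides hashtag groups at the widest gap in the summed level of immediate-early genes in CD4-gated cells. Benjamini-Hochberg adjustment ran over all genes tested. Shares were compared by two-sided permutation tests over hashtag groups with at least 10 cells (scipy 1.17.1), exact except for the test within treatment, with 100000 resamples, adjusted over the 8 comparisons. Python 3.11.15, numpy 2.4.6, pandas 2.3.3 and matplotlib 3.10.9 were used. V pairs were read from the leading Trbv and Trav genes of the count table. The scripts were tested on simulated data.

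Genes named were the markers Cd8b1, Ccl5, Gzmk and Nkg7, members of 14 gene lists, and the 5 largest rises and falls among the genes called in each comparison, without receptor and immunoglobulin segments and Gm, Rik and mt- genes. Some genes that this rule names are not reported here. The cells, the lists, the gates and the immediate-early sets were chosen with earlier results of these data known. Of 147 list genes, 145 were tested, as Mx1 was not in the table and Klra6 had under 50 UMIs. Where a group had no UMI, a fold is a lower bound from a floor of 3 UMIs over the library. Floors and intervals cover counting error only. The alternatives were other scaling (RLE), filters, minimum cells, DESeq2 (1.42.0), no term for the set, thinning to 1000 UMIs, other hashtag and Ccl5 thresholds, and leaving out each hashtag group.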

Additional observations from a re-analysis of the deposited data

Results flagged for a closer look

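Among 59 sets of 4 hashtag groups of 1 library, 4 had a group far from the other 3, where chance gives about 1 in 20. Gzmk in hashtag 7 of WT control had 552.5 CPM, and the nearest group had 427.7 CPM. The share with Ccl5 among CD8-gated cells was 72.7% in hashtag 6 of WT acute colitis, which held 11 CD8-gated cells, and the nearest group had 90%. The chance that cells shared the leading Trbv gene was 3.997% in hashtag 6 of AppNL-G-F chronic colitis, and the nearest group had 11.6%. Nkg7 in hashtag 5 of AppNL-G-F food allergy had 1798.6 CPM, and the nearest group had 2584.3 CPM. Outside the comparisons, 289 cells met the gene gate but could not be given to 1 hashtag, of which 84 had a top hashtag of at least 50 counts at 2 to 3 times the next.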

How the results depend on the processing

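The number of genes called depended most on the filter and on transcript length. With every gene that had a UMI, 297, 500 and 278 genes were called in WT acute colitis, chronic colitis and food allergy, 241, 108 and 111 in the same AppNL-G-F comparisons, 312 between controls and 291 between genotypes. With transcripts of 1000 nucleotides or more, chosen after the data were seen, these were 41, 116, 39, 13, 0, 0, 80 and 44 by edgeR, and the comparisons at 0, AppNL-G-F chronic colitis and food allergy, had 290 and 324 genes at an unadjusted p under 0.05. AppNL-G-F acute colitis had 12 calls under edgeR's own filter, 14 with DESeq2 and 7 without the set term, where chronic colitis had 7 and food allergy 4. With receptor segments left out, also chosen after the data were seen, these had 6 and 3. Of 100 named calls, 1597 of 1850 values under alternatives stayed called, 253 did not, and 0 turned direction.

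Leaving out 1 hashtag group gave 87 to 115 calls in WT acute colitis, 195 to 240 in WT chronic colitis, 71 to 126 in WT food allergy, 167 to 182 between controls and 89 to 128 between genotypes. It gave 7 to 44 in AppNL-G-F acute colitis (12 without hashtag 4 of control, 44, 17 and 7 without hashtags 4, 5 and 7 of acute colitis), 7 to 12 in chronic colitis (7 without hashtag 4 of control) and 4 to 10 in food allergy (4 without hashtag 4 or 5 of control or hashtag 5 of food allergy). In WT food allergy, 71 remained without its hashtag 5. The cause was not tested.

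No share difference passed the test after adjustment under any alternative run. The AppNL-G-F control minus WT control difference in the share of CD8-gated cells turned to -0.90 points after thinning, and as shares of T cells WT food allergy, AppNL-G-F chronic colitis and AppNL-G-F food allergy minus control were -8.57, -1.86 and -2.11 points. Leaving out 1 group gave -9.20 to -2.56 points for WT acute colitis, -6.68 to 2.56 for WT chronic colitis (2.56 without its hashtag 6), 1.53 to 6.099 for WT food allergy, -3.31 to 0.31 for AppNL-G-F acute colitis (0.309 without hashtag 7 of control), 1.15 to 4.77 for AppNL-G-F chronic colitis, 1.08 to 4.70 for AppNL-G-F food allergy, -1.48 to 3.02 between controls (-1.48 without hashtag 6 of WT control, and also below 0 without hashtag 7 of AppNL-G-F control) and 2.35 to 4.66 between genotypes. The Trbv difference was 1.45 to 2.75 points. The Trav alternative and the one with at least 20 cells had too few groups to give a value.

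The labels give each library 1 replicate number. Hashtag number was used as a replicate block over the library pairs with shared V pairs, chosen after the data were seen. With the block, 138 genes were called in WT acute colitis and 36 in AppNL-G-F acute colitis, with 118 and 27 without it. In WT the pairs in the fit were hashtags 4 and 5, in which control was low-set and acute colitis high-set. Within these blocks only the set term, shared with the other libraries, separated treatment from set.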
